A study of Mus musculus with 12 samples.

Results

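Of 34953 H3K27ac regions shared by both non-CIN replicates in postnatal day (P)2 mouse cortex, 1843 lay inside protein-coding genes, off promoters, and had no called peak in the matching lists of cortical interneurons (CINs). They made up 9.41% of the 19587 shared non-CIN regions at such positions. They were chosen by presence and absence of peaks in the 4 H3K27ac lists. Within a list, neighbouring peaks no more than 500 bp apart were joined, non-CIN peaks that overlapped a CIN peak of the same replicate number were dropped, and the stretches left in both non-CIN replicates were kept. Of the 2775 such non-CIN-only regions anywhere, 1843 (66.4%) had their centre inside a gene of the GENCODE M21 annotation (GRCm38/mm10) and outside the window from 1 kb upstream to 100 bp downstream of every transcription start site (TSS). A further 854 lay between genes and 78 at promoters.

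The cortices came from *Gad67-GFP* heterozygote pups, in which the green fluorescent protein (GFP) marks GABAergic cells, so every sample carried this allele, on a mixed background with CD-1. Each replicate pooled several litters. Sorting split the dissociated cells into a GFP+ fraction, called CINs, and a GFP- fraction, called non-CINs, which holds glutamatergic projection neurons (PNs), glia and other cells. Native ChIP-seq of H3K27ac and H3K27me3 was performed on 2 replicates of each population, which gave 4 peak lists for each mark. The H3K27ac lists held 39646 to 53673 merged peaks in CINs and 39327 to 50043 in non-CINs, and the read depth of the libraries is unknown. In bulk chromatin, fewer cells carrying a mark and less of the mark in each cell cannot be told apart, and "no peak" means only that none was called.

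H3K27ac is an acetylation of histone H3 found at active promoters and enhancers, whereas H3K27me3, deposited by Polycomb, marks silent or poised genes. The 2 marks sit on the same lysine and cannot share one histone tail. Many enhancers lie in introns, and an intronic enhancer can act on its host gene or on another gene nearby, so a host gene here is a position and not a target. The GFP- fraction of the P2 cortex holds PNs, astrocytes and their radial glial precursors, oligodendrocyte precursors, microglia and vascular cells.

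The labels were checked at promoters, which the rule left out. The promoters of *Gad1*, *Dlx1*, *Dlx2*, *Dlx5*, *Dlx6* and *Slc32a1*, genes of GABA synthesis, GABA packaging and interneuron identity, had H3K27ac peaks in both CIN lists and in neither non-CIN list. In all, 9 of 30 interneuron genes had this pattern and 0 had the opposite one. Among 32 PN genes, 17 had a promoter peak in all 4 lists, 0 had one in both non-CIN lists alone, and *Bcl11b* and *Slc17a6* had one in both CIN lists alone. *Fgfr3*, an astrocyte and radial glial receptor, was the 1 of 34 astrocyte genes with a promoter peak in both non-CIN lists alone. The CIN lists also held peaks at promoters of glial genes. In all 4 lists, 26 of the 34 astrocyte genes, among them *Gfap*, *Aqp4* and *Aldh1l1*, and 13 of 26 oligodendrocyte lineage genes, among them *Olig1*, *Olig2* and *Sox10*, had a promoter peak. These 6 glial genes were named after their values were seen. The presence of a called peak does not measure its height. The paper reports more H3K27ac in non-CINs over and near *Emx2*, *Olig1*, *Olig2* and *Aldh1l1*.

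The sequences below are the central 200 bp of the 6 regions with the strongest enrichment and of the strongest region in a gene of each of 5 cell type lists, so that the regions can be seen beside their values. They are plus-strand reference sequence (GRCm38/mm10). Capitals mark every match, on either strand, to 1 of 14 short binding motifs that were searched, and sequences with no capitals hold none of them. For the interneuron list, the strongest region lay in the 3′ UTR of *Satb1*, and the next, in *Sox6*, is shown. Each region shown is longer than its window, whereas some of the regions not shown are shorter than 200 bp.
Arpc4, chr6:113384551-113384750: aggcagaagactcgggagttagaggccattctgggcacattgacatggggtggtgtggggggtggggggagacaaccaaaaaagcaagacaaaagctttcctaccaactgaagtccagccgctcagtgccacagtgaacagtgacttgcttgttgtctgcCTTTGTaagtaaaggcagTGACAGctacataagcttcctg
Syne1, chr10:5528553-5528752: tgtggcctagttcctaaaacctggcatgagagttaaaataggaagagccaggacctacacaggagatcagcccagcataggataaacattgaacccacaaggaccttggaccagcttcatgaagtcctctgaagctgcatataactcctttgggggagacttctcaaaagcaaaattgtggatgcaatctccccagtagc
Garnl3, chr2:33037248-33037447: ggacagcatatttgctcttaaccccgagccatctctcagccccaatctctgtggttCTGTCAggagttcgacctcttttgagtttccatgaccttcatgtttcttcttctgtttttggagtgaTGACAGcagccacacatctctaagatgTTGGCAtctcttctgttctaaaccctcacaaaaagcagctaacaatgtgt
Ank3, chr10:69888363-69888562: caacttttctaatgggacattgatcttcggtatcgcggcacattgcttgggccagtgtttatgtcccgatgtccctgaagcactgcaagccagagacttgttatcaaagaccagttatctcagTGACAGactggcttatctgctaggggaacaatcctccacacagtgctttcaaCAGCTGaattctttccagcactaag
Dmd, chrX:85112333-85112532: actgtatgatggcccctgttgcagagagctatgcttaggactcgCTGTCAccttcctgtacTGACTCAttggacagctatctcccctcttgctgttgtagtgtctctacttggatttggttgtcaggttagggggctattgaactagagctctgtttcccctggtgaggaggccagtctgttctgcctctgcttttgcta
Gm42906 and Stard13, chr5:151206914-151207113: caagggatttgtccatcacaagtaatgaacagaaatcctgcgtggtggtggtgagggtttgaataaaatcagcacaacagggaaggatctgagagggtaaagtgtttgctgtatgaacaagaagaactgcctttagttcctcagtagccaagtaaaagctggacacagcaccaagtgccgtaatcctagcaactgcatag
Slc1a3 (astrocyte and radial glia), chr15:8685323-8685522: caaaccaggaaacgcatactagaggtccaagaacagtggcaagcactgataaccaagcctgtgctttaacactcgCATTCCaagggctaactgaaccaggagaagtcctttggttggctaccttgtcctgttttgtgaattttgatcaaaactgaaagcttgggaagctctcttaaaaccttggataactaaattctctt
Opcml (oligodendrocyte lineage), chr9:28692212-28692411: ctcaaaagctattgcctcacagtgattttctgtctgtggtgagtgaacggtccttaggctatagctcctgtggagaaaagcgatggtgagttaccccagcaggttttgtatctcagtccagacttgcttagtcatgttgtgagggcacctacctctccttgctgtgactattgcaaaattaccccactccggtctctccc
Foxp2 (glutamatergic PN), chr6:15321683-15321882: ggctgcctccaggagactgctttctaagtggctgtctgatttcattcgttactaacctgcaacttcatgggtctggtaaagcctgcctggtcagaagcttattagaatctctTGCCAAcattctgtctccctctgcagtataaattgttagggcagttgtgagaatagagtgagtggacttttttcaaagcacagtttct
Mertk (microglia), chr2:128713818-128714017: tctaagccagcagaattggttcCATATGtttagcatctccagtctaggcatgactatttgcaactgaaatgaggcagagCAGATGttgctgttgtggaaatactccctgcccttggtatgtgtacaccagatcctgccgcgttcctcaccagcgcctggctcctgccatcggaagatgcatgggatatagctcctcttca
Sox6 (cortical interneuron), chr7:115511519-115511718: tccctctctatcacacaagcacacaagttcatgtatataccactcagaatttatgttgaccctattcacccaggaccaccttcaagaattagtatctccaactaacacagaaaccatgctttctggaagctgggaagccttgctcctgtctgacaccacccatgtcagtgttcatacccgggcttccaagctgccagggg

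In these windows, *Arpc4* held a SOX core (CTTTGT) and a MEIS core (CTGTCA), *Garnl3* an NFI motif (TTGGCA) and 2 MEIS cores, and *Foxp2* an NFI motif. *Dmd* held a MEIS core and an AP-1 site (TGANTCA), *Ank3* a MEIS core and an E-box (CAGCTG), *Mertk* the E-boxes CAGATG and CATATG, and *Slc1a3* a TEAD site (GGAATG). The windows of *Syne1*, *Gm42906*, *Opcml* and *Sox6* held none. A match is a description of the letters and not evidence that a factor was bound.

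Over all 1843 windows, the NFI motif was in 16.4% (95% Wilson interval 14.8 to 18.1), beside 15.7% of CIN-only and 13.2% of common regions inside genes. CIN-only regions are the mirror set, with peaks in both CIN lists and none in the matching non-CIN lists, and common regions were in all 4 lists. The letters TAATTA, the core bound by DLX and LHX homeodomain factors, were in 3.64% of the non-CIN-only windows (2.87 to 4.59), 10.2% of the CIN-only windows (8.92 to 11.6) and 4.06% of the common windows. The SOX core was in 20.5%, 27.6% and 20.4% of the 3 classes in the same order, and the E-box CAGATG in 13.5%, 19.8% and 13.2%. For these 3 motifs the non-CIN-only windows thus sat close to the common windows and below the CIN-only windows. The AP-1 site was in 6.62%, 5.36% and 4.97%, and the ETS core CCGGAAG in 0.760%, 0.893% and 2.25%.

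The MEIS core was in 15.4% of non-CIN-only, 20.2% of CIN-only and 13.9% of common windows, and the E-box CAGCTG in 13.2%, 16.5% and 13.9%. The third E-box, CATATG, was in 2.71%, 3.97% and 2.12%. The POU octamer ATGCAAAT was in 0.977%, 2.18% and 1.40%, and the RFX motif GTTGCCA in 2.44%, 3.87% and 2.91%. For the TEAD site (10.96%, 11.6% and 10.4%), the PU.1 site GAGGAAG (7.60%, 7.29% and 8.35%) and the T-box motif AGGTGTG (2.33%, 2.78% and 2.41%) the 3 classes were close. Motifs were counted separately, so a window can hold several and their letters can overlap.

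Base composition also differed between the classes. GC content was 47.5% ± 6.29 (SD, n = 1843 windows) in non-CIN-only regions, 46.2% ± 7.46 in CIN-only and 52.2% ± 10.7 in common regions, with 2.45, 3.04 and 6.48 CpG dinucleotides per window. The part of base composition in the motif shares was not tested. The intervals cover counting error only, and windows that share a gene or a locus are not independent.

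The regions were weak and short. Strength was read as the fold enrichment of ChIP over input, ranked against all called peaks of the same list (as a percentile) because the lists differ in scale. A merged peak took the largest fold enrichment, percentile and −log10 *q* of its called peaks, so regions joined from several peaks carry a maximum. The median region was at percentile 31.0 in non-CIN replicate 1 and 21.4 in replicate 2, with a median fold enrichment of 3.68 and 3.84 beside lowest listed values of 3.13 and 3.30. Taking the lower of the 2 percentiles, the median was 15.7, against 26.95 for CIN-only regions in the CIN lists and 61.8 for common regions inside genes in the non-CIN lists. Being absent from another list is part of the rule, so these values are a description.

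**Figure D1:**
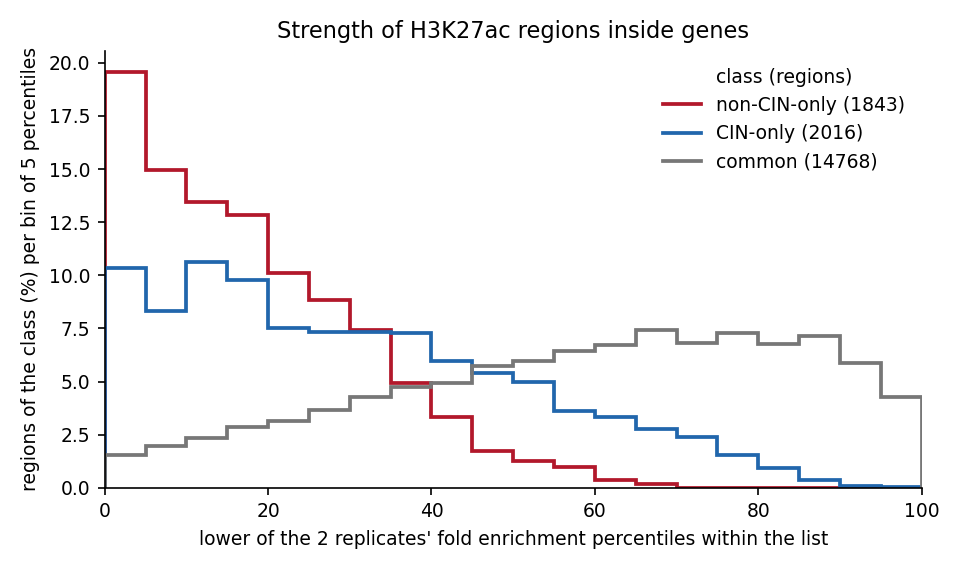
Share of regions inside genes (vertical axis, percent of the class) in bins of 5 percentiles of strength (horizontal axis, the lower of the 2 replicates' fold enrichment percentiles). Non-CIN-only regions (red, 1843) pile up at the low end with a median of 15.7, CIN-only regions (blue, 2016) spread further with a median of 26.95, and common regions (grey, 14768) have a median of 61.8.

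The strongest region reached a lower percentile of 69.9, 51 regions (2.77%) were at or above percentile 50 in both lists, and 0 were at or above percentile 75 in both. A −log10 *q* of 4 or more in both lists was met by 265 regions (14.4%), compared with 892 CIN-only regions (44.2%) inside genes. In single replicates, non-CIN-only and CIN-only shares were 25.5% and 25.4% in replicate 1, and 30.2% and 49.98% in replicate 2. The 2 classes were thus close in replicate 1 and apart in replicate 2. This cut used raw values of lists that differ in scale. Median length was 266 bp (range 3 to 1555 bp), and 1553 regions (84.3%) came from a single called peak in each list. The median CIN-only region was 354 bp long, and the median common region 768.5 bp. The 2 replicates ranked the members differently, with a Spearman correlation of their percentiles of 0.165 over the 1843 regions, and of 0.748 over all 19587 regions inside genes that both non-CIN lists shared. The members span a narrower range of strength than all shared regions, so the 2 correlations are not on equal terms. Members of 1 host share a locus, so the points are not independent.

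The 12 strongest regions were all intronic. The region at the top was a 692 bp stretch in intron 4 of 5 of *Arpc4* (chr6:113384305-113384996), which encodes a subunit of the actin-branching Arp2/3 complex. Its fold enrichment was 5.20 in non-CIN replicate 1 and 5.73 in replicate 2, and the nearest CIN peaks were 5299 bp and 5546 bp away. *Syne1*, which encodes the nuclear envelope protein nesprin-1, held a 687 bp region in intron 2 of 145 with folds of 4.67 and 5.70, and its nearest CIN peaks were 21117 bp and 217713 bp away. *Garnl3* held the next, in intron 9 of 29, with folds of 4.89 and 5.63.

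*Ank3*, the gene for the axonal scaffold ankyrin-G, held a 239 bp region in intron 17 of 42, with folds of 4.47 and 6.01. *Dmd*, which encodes dystrophin, held one in intron 67 of 78, more than 2 Mb (2163529 bp) from the start of the transcript, with folds of 4.85 and 5.24. The region in *Pdpn*, the gene for the membrane glycoprotein podoplanin, was in intron 1 of 5, with folds of 4.35 and 5.19 and CIN peaks 1992 bp and 1975 bp away. The remaining 6 were in *Gm42906* (which overlaps *Stard13* there), *Phactr1*, *Nebl*, *Kirrel3*, *Ppp2r5e* and *Kazn*, with lower percentiles from 59.5 (*Kazn*) to 61.4 (*Gm42906*).

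The smallest gaps that met the rule were in *Tbc1d4* and *Arhgap21*, where a non-CIN peak that gave the member ended 3 bp from a CIN peak of its replicate number. Just outside, a region in *Ddah1* was dropped for an overlap of 2 bp and one in *Prex2* for 4 bp. Their lower percentiles were 9.98 and 31.9 for the 2 inside and 21.8 and 10.3 for the 2 outside. At the promoter boundary, a region in *Galnt16* at −1015 bp from a start site and one in *Zc3h12a* at 102 bp were kept, and ones in *B3galt1* at −940 bp and in *Trim34a* at 92 bp were dropped. Their lower percentiles were 39.2 and 5.76 for those kept and 18.4 and 83.6 for those dropped. In all, 248 members (13.5%) had a CIN peak within 1000 bp, and 572 (31.0%) had none within 10000 bp in either CIN list.

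Of the H3K27ac regions that both non-CIN lists shared inside genes and off promoters, 9.41% (1843 of 19587) were non-CIN-only. The share was 9.55% (854 of 8942) between genes and 1.21% (78 of 6424) at promoters. A non-CIN region inside a gene was thus about as likely to lack a CIN peak as one between genes. CIN-only regions were split differently, with 2016 of 4182 (48.2%) inside genes and 2010 (48.1%) between them.

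Nearly all members were intronic. Introns held 1709 (92.7%), against 92.5% of CIN-only and 85.9% of common regions. Of the other members, 3′ UTRs held 52, coding exons 35 and 5′ UTRs 9, while 38 lay in a gene but outside its basic transcripts. The first intron, which in many genes is long and rich in regulatory elements, held 537 (29.1%, 95% Wilson interval 27.1 to 31.3). In single replicates, where a region needed only that replicate's pair of lists, the share was 31.0% (2777 of 8952) in replicate 1 and 29.7% (1904 of 6409) in replicate 2. CIN-only regions had 25.1% in the first intron, and 28.7% and 29.1% in single replicates, so the members and CIN-only regions were closer there. Common regions had 39.0%.

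**Figure D2:**
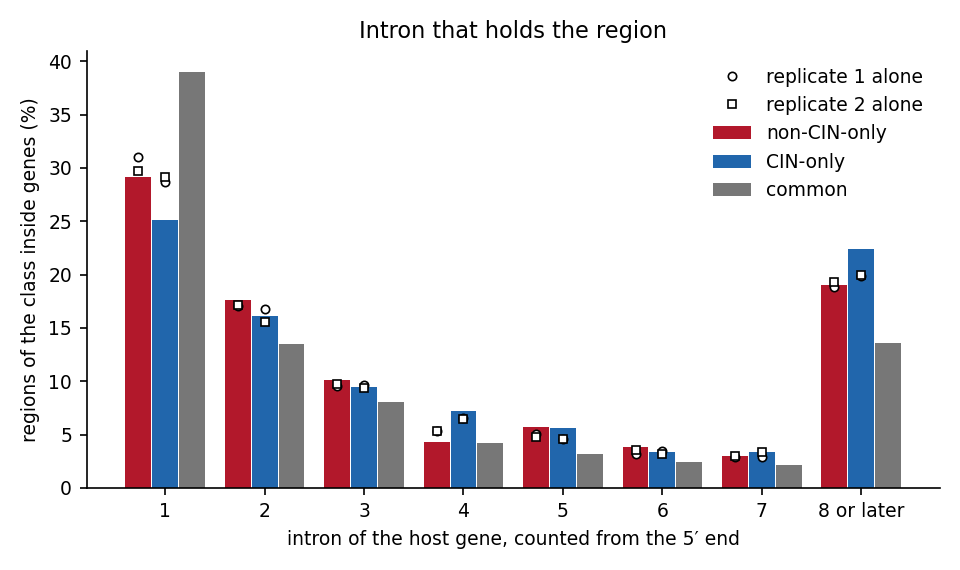
Share of regions inside genes (vertical axis, percent of the class) by the intron that holds their centre, counted from the 5′ end of the host's longest transcript (horizontal axis). Bars are regions of both replicates and open symbols are single replicates (circle replicate 1, square replicate 2). The first intron held 29.1% of non-CIN-only, 25.1% of CIN-only and 39.0% of common regions.

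The first intron made up on average 27.6% of the transcript length of the members' hosts, 26.0% for CIN-only and 27.7% for common regions. The share of members in first introns was therefore near the share of length that these introns took, whereas common regions were above it. Introns 2 and 3 held 17.6% and 10.1% of the members, and introns 8 or later 19.0%. The median member lay 51851 bp from the start of the host transcript and 49.3% of the way along the host gene, against 79515 bp and 49.9% for CIN-only and 27594.5 bp and 33.0% for common regions. A common region lay within 5 kb of 29.8% of the members and of 14.0% of CIN-only regions.

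The members fell in 1376 genes, or 6.27% of the 21951 protein-coding genes. Most hosts (1068, 77.6%) held a single member, 44 held 4 or more, and these 44 together held 245 members. Hosts were long, with a median of 108254 bp against 17403 bp for all protein-coding genes. Of the 2492 genes of 100 kb or more, 29.8% (742) held a member, and among genes under 10 kb the share was 0.385% (30 of 7787). CIN-only regions leaned further to the longest genes. In the 230 genes of 500 kb or more, 50% held a member and 70% a CIN-only region, whereas in genes of 20 to 50 kb the shares were 4.81% and 3.34%.

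*Npas3*, which encodes a bHLH-PAS transcription factor of the developing brain, held the most, with 18 members in 8 of its 11 introns (chr12:53248677-54072175). It held 2 CIN-only regions. The members ran from 60636 to 809897 bp into the gene, and the strongest, in intron 4, had folds of 4.42 and 4.66. *Nckap5* (chr1:125913620-126830799) held 13 members and 1 CIN-only region, with folds from 3.36 to 4.37 in replicate 1 and from 3.32 to 4.23 in replicate 2.

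*Creb5*, a transcription factor gene of the CREB/ATF family, held 8 members and 0 CIN-only regions, all from intron 4 onwards, and its strongest had folds of 4.60 and 4.73. *Nav2* (neuron navigator 2) and *Limch1* (a regulator of actomyosin) each held 7 and 0. *Msi2*, an RNA-binding protein gene of neural progenitors, held 7 members and 3 CIN-only regions, and *Celf2*, a splicing regulator, 7 and 2. *Fars2*, which encodes a mitochondrial phenylalanyl-tRNA synthetase, held 8 and 1.

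*Fgfr2* (10 members, 11 CIN-only regions) and *Gm20388* (9 and 16) were also among the 10 hosts with most members, but their annotated spans of 2960900 bp and 4434882 bp cover many other genes. In the RefSeq annotation of the same build, *Fgfr2* spans 104358 bp and holds 0 members. *Gm20388* was not matched there. *Nfia* followed *Nckap5* in that annotation, with 10 members in its RefSeq span against 6 in its GENCODE span. In total, 1815 members (98.5%) lay inside a RefSeq protein-coding gene, in 1342 hosts, and the counts of *Npas3*, *Nckap5*, *Creb5*, *Nav2*, *Limch1*, *Celf2* and *Msi2* were the same in both.

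**Figure D3:**
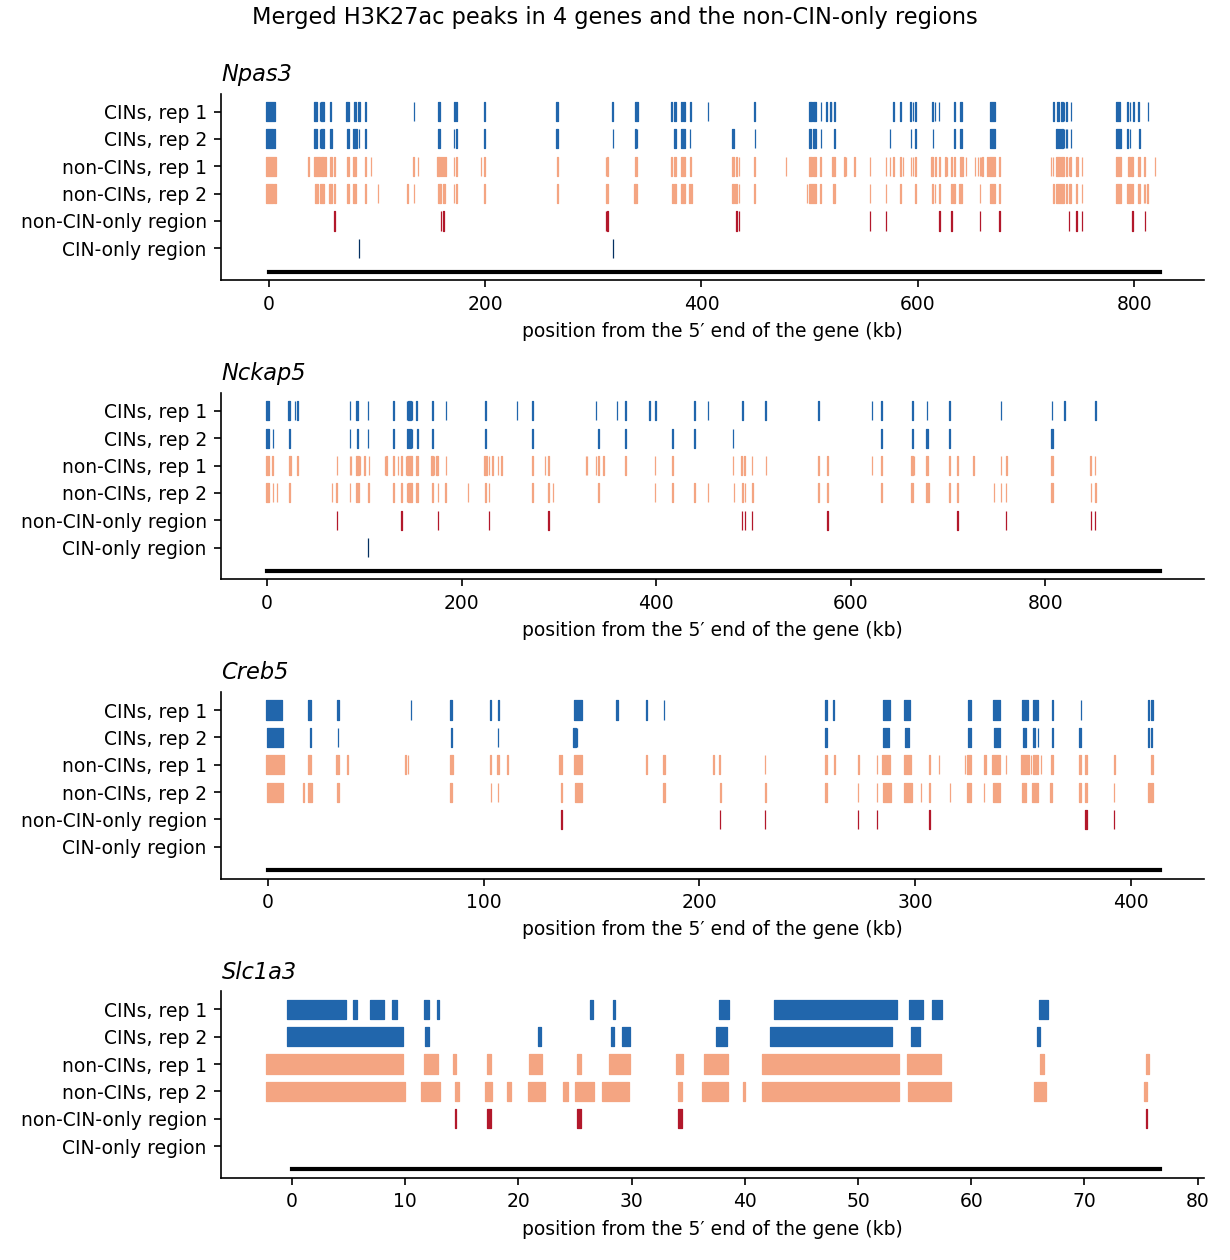
Merged H3K27ac peaks of each list along 4 host genes, with the non-CIN-only regions (dark red) and CIN-only regions (dark blue) beneath and the gene as a black line (horizontal axis, kb from the 5′ end of the gene). *Npas3* holds 18 non-CIN-only and 2 CIN-only regions, *Nckap5* 13 and 1, *Creb5* 8 and 0, and *Slc1a3* 5 and 0, all among peaks that both populations share.

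The members stood among other peaks, and 1095 hosts (79.6%) also held a common region inside, against 31.7% of all protein-coding genes and 73.4% of those of 100 kb or more. *Npas3* held 38 common regions, *Nckap5* 17 and *Creb5* 18. To ask whether the rest of the H3K27ac in these genes differed, the members' own peaks were left out. The remaining peaks covered 66357 bp and 58329 bp of *Npas3* in CIN replicates 1 and 2. In non-CINs they covered 91053 bp and 81284 bp (1.38-fold in the mean). The mean was also higher in non-CINs for *Nckap5* (1.42-fold), *Limch1* (1.41-fold) and *Creb5* (1.34-fold). In *Npas3*, *Nckap5*, *Limch1*, *Creb5*, *Fgfr2*, *Fars2*, *Nav2* and *Celf2* the non-CIN length was the larger one within each replicate number. In *Msi2* it was the larger one in replicate 2 alone, and in *Gm20388* in neither replicate. The hosts were picked for their members in these same lists, so these lengths carry no test.

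Over all hosts with a peak in all 4 lists, the remaining H3K27ac was longer in non-CINs in both replicates for 579 of 1259 (46.0%) and longer in CINs in both for 264 (20.97%). Among all 11814 protein-coding genes with a peak in all 4 lists the shares were 31.4% and 28.9%. In hosts of 2 or more members they were 59.4% and 11.2% (303 genes), and in hosts of CIN-only regions 12.7% and 60.6% (1118 genes). These peaks come from the same lists as the members, so the shares are a description without a test. Only the members' own peaks were left out, so the CIN lengths can include peaks that gave CIN-only regions.

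Gene lists for the cell types of the cortex were then compared by how many genes held a member. Among 34 astrocyte and radial glia genes, 10 (29.4%) held 23 members, and 4 (11.8%) held 7 CIN-only regions. The corresponding figures were 6.27% and 6.09% of all protein-coding genes. The list had a median gene length of 19394 bp, but the 10 included long genes such as *Nfib* (415578 bp), *Slc4a4* (352836 bp) and *Nfia* (346141 bp). Of all genes of 200 to 500 kb, 32.4% held a member and 43.6% a CIN-only region. *Slc1a3*, which encodes the glutamate transporter GLAST, held 5 members in 76641 bp, or 6.52 per 100 kb, against 2.19 in *Npas3*. Short hosts reached such densities with fewer members, as did *Slco1c1* (3 members, 6.55 per 100 kb) and *Akt2* (3 members, 6.09 per 100 kb). The strongest *Slc1a3* member is described next. The strongest, in intron 3 (chr15:8685245-8685599), had folds of 4.06 and 4.73, at percentiles 50.1 and 52.0. The other 4 had folds of 3.36 to 3.85 in replicate 1 and 3.44 to 3.90 in replicate 2, and 1 of them was in the 3′ UTR.

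*Nfia* and *Nfib*, transcription factor genes of gliogenesis, held 6 and 2 members, beside 1 and 3 CIN-only regions. *Slco1c1*, a transporter of thyroid hormone, held 3 members in 45810 bp, of which the strongest lay over a coding exon with folds of 4.34 and 4.01. *Tnc*, the gene for the matrix protein tenascin-C, held 2, one of them a shared stretch of only 3 bp. *Slc1a2* (the glutamate transporter GLT-1), *Aldh1l1* (a folate enzyme), *Gli3* (a Hedgehog pathway factor), *Acsbg1* (an acyl-CoA synthetase) and *Slc4a4* (a bicarbonate transporter) held 1 each. The *Aldh1l1* region, outside the gene's basic transcripts and its RefSeq span of 48404 bp, was 1366 bp long, with folds of 3.69 and 4.13, and the *Slc4a4* region was near the floor of the list in replicate 2 (percentile 1.59). The promoters of 9 of these 10 genes had H3K27ac in all 4 lists, and that of *Slc4a4* only in non-CIN replicate 1.

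**Figure D4:**
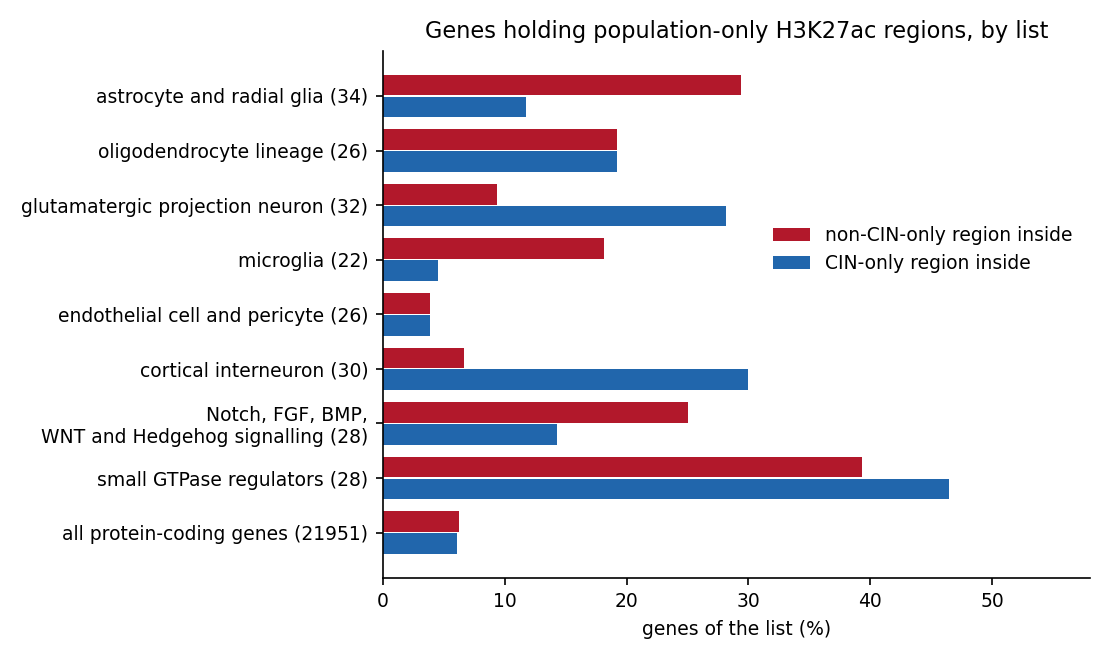
Share of the genes of each list (horizontal axis, percent, number of genes in parentheses) that hold a non-CIN-only region (red) or a CIN-only region (blue) inside. Astrocyte and radial glia genes stand at 29.4% and 11.8%, PN genes at 9.38% and 28.1%, interneuron genes at 6.67% and 30%, and all protein-coding genes at 6.27% and 6.09%.

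Glutamatergic PN genes went the other way, with 3 of 32 (9.38%) holding 5 members and 9 (28.1%) holding 20 CIN-only regions. *Cux1*, an upper-layer homeodomain factor gene, held 3 members, each near the floor of at least 1 list (lower percentiles 0.384 to 1.42), beside 4 CIN-only regions. *Foxp2*, a deep-layer forkhead factor gene, held 1 with folds of 3.38 and 4.80, and *Unc5d*, a netrin receptor gene, held 1 with folds of 3.84 and 3.50. In the interneuron list, 2 of 30 genes held 4 members and 9 held 19 CIN-only regions. *Sox6* held 3 of these members, with folds up to 4.12 and 4.10, and *Satb1* held 1 in its 3′ UTR, with folds of 4.12 and 4.31. Both encode transcription factors.

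Oligodendrocyte lineage genes held members in 5 of 26. *Opcml*, which encodes a cell adhesion molecule, had the strongest member of any cell type list, in intron 3 (chr9:28692186-28692436), with folds of 4.20 and 5.81 and the nearest CIN peaks 45806 bp and 45668 bp away. *Chst11*, a chondroitin sulfotransferase gene, held 3 with folds of 3.38 to 3.76 in replicate 1 and 3.48 to 4.57 in replicate 2. *Lhfpl3*, *Qk* (an RNA-binding protein of myelination) and *Cnp* (a myelin enzyme) held 1 each, and the *Cnp* stretch of 11 bp also lay in *Dnajc7*. CIN-only regions were found in 5 of the 26 genes as well.

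Microglial genes held members in 4 of 22 and CIN-only regions in 1. *Cx3cr1*, the fractalkine receptor gene, held a 630 bp region with folds of 4.47 and 3.87, at percentiles 64.0 and 23.0, and its promoter had no H3K27ac peak in any of the 4 lists. The GENCODE model of *Cx3cr1* spans 168264 bp, the region lies 68138 bp from its start, and the RefSeq span of 19614 bp holds 0 members. *Mertk*, a receptor of phagocytosis, held 1 with folds of 4.21 and 4.06. The regions in *P2ry12*, which also lies inside *Med12l*, and *Inpp5d* were weaker (lower percentiles 4.62 and 4.14). Among 26 endothelial and pericyte genes, *Pdgfrb*, a pericyte receptor gene, held 1, with folds of 3.64 and 3.88. The lists differ in gene length, from a median of 13787 bp (interneuron) to 39584.5 bp (endothelial and pericyte), and longer genes more often held a member, so the counts are descriptions. In RefSeq spans, used after seeing the data, members fell in 9 of the 34 astrocyte and radial glia genes (26 members) and in 3 of the 22 microglial genes, and the oligodendrocyte, PN, vascular and interneuron counts were the same.

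Genes of Notch, FGF, BMP, WNT and Hedgehog signalling held members in 7 of 28 and CIN-only regions in 4, and without the long *Fgfr2* model in 6 and 3 of 27. Their median length was 63668 bp, and of all genes of 50 to 100 kb, 11.4% held a member and 9.50% a CIN-only region. *Maml2*, a coactivator of Notch signalling, held 6 members and 0 CIN-only regions, 5 of them in its first intron. *Notch2* held 1 with folds of 5.34 and 4.19, and the first of these, at percentile 80.7, was the highest percentile in a single list among members of the listed genes. Its nearest CIN peaks were 173 bp and 2448 bp away. The receptor genes *Bmpr1a* and *Tgfbr2* held 2 each, and *Bmpr1b* and the Hedgehog receptor gene *Ptch1* held 1 each. Without *Fgfr2*, the list held 13 members and 6 CIN-only regions. Small GTPase regulators, whose genes are long (median 261890 bp), held 17 members in 11 of 28 genes (39.3%) and 28 CIN-only regions in 13 (46.4%). Among all genes of 200 to 500 kb, 32.4% held a member and 43.6% a CIN-only region. *Dock1* and *Arhgef3*, exchange factor genes, and *Arhgap26*, a GTPase-activating protein gene with 2 overlapping models, held 3 members each, and the strongest of the list was in *Vav3*, with folds of 4.13 and 4.61. The other 7 genes (*Arhgap31*, *Rapgef2*, *Rasa3*, *Asap2*, *Tiam2*, *Prex1* and *Srgap1*) held 1 each.

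H3K27me3 was rare over the members and was not used to choose them. An H3K27me3 peak overlapped 16 (0.868%) and 27 (1.47%) of the 1843 members in CIN replicates 1 and 2, and for non-CINs the counts were 9 (0.488%) and 17 (0.922%). The groups overlapped, and the mean difference was −0.461 percentage points (non-CIN minus CIN, exact two-sided permutation test, n = 2 against 2, p = 0.667). In all, 1811 members (98.3%) had no H3K27me3 peak in any list. Over CIN-only regions inside genes, CIN replicates had shares of 3.27% and 5.06%, and non-CIN replicates 5.21% and 7.09% (difference 1.98 points, exact permutation p = 0.333, the smallest possible), and over common regions they ran from 1.73% to 2.81%.

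The exceptions were few. A single member, in *Lrmda*, lay under H3K27me3 in both CIN lists and in neither non-CIN list, and 0 showed the reverse. It had H3K27ac folds of 3.64 and 4.42 and H3K27ac CIN peaks 91 bp and 6203 bp away, and the H3K27me3 peaks over it were at percentiles 76.7 and 88.0 of the CIN lists. Another 8, in *Grb10*, *Cxcl14*, *Gcnt4*, *Cyp1b1*, *Rbm20*, *Tfap2c*, *Gabbr2* and *Tenm4*, overlapped H3K27me3 peaks in all 4 lists. *Grb10*, an imprinted growth regulator gene, had an H3K27ac region of 1127 bp with folds of 3.55 and 5.65, under H3K27me3 peaks at percentiles 97.2 to 98.5 of the 4 lists. These 9 genes were chosen after their values were seen.

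**Figure D5:**
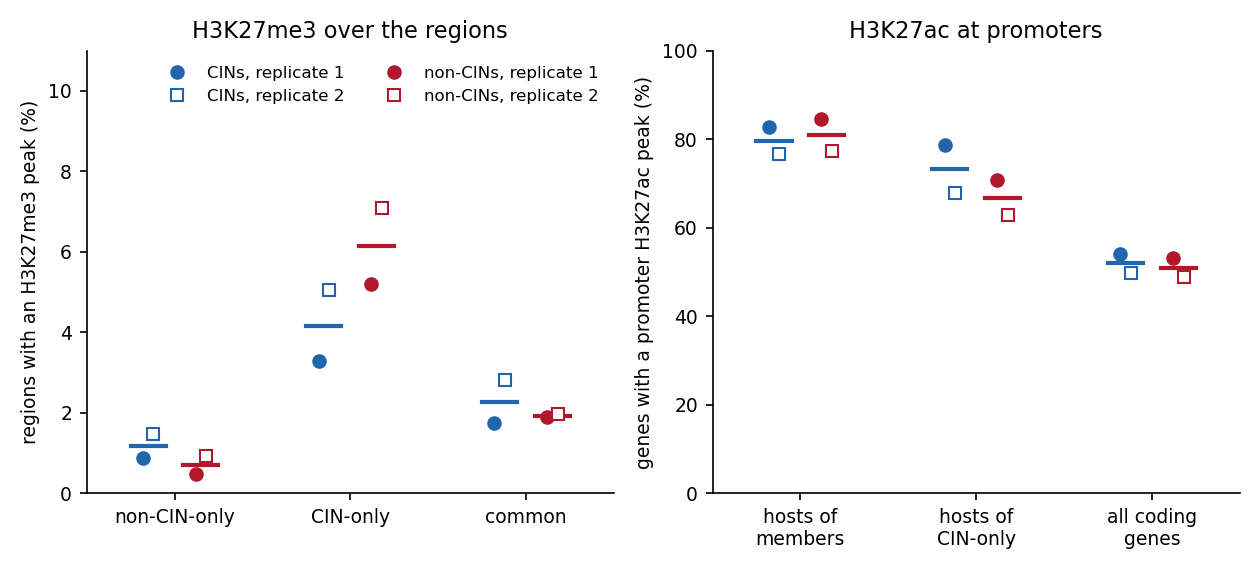
Left, percent of regions inside genes that overlap an H3K27me3 peak in each list (non-CIN-only, CIN-only and common regions). Right, percent of genes with an H3K27ac peak at a promoter. Points are single replicates (filled circle 1, open square 2), bars are means, CINs are blue and non-CINs red. Non-CIN-only regions have the lowest H3K27me3 shares, 0.488% to 1.47%, and promoters of their hosts carry H3K27ac in 76.7% to 84.7%.

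The promoters of host genes were mostly acetylated in both populations. Of the 1376 hosts, 82.7% and 76.7% had a promoter H3K27ac peak in CIN replicates 1 and 2 and 84.7% and 77.4% in non-CINs, against 48.8% to 54.2% of all protein-coding genes. The groups overlapped, with a difference of 1.34 percentage points (non-CIN minus CIN). The hosts were chosen in these same lists, so this is a description with no test. Once the peaks that gave the members themselves were left out at promoters, a check chosen after seeing the data, the difference was −0.145 points. A promoter peak was present in all 4 lists for 1003 hosts (72.9%) and in none for 165.

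The promoter was acetylated in both non-CIN lists alone in 25 hosts (1.82%, against 0.369% of all protein-coding genes) and in both CIN lists alone in 3 hosts (0.218% against 0.679%). In 16 of the 25, the promoter peak in at least 1 list was the peak that gave the member. The 9 others were *Epas1*, *Kazn*, *Nfatc4*, *Nomo1*, *Piezo1*, *Rreb1*, *Samd5*, *Ston2* and *Suclg2*, which make up 0.654% of hosts. *Kazn* and *Suclg2* each held 2 members. *Epas1* encodes a hypoxia-inducible transcription factor, *Nfatc4* a calcium-regulated transcription factor and *Piezo1* a mechanically gated channel. The 3 hosts with the opposite pattern were *Clvs1*, *Grik3* and *Pcdhga6*, each with 1 member and 1 to 3 CIN-only regions. These genes were named after their values were seen.

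Members and CIN-only regions shared some hosts. Of the 1376 host genes, 326 also held a CIN-only region, which is 23.7% of the hosts of members and 24.4% of the 1336 hosts of CIN-only regions. For comparison, 6.09% of all protein-coding genes and 34.2% of those of 100 kb or more held a CIN-only region. The 2 sets are exclusive by the rule at the level of regions and free to share genes. *Npas3*, *Nckap5*, *Msi2*, *Celf2*, *Fars2*, *Nfia*, *Nfib*, *Sox6* and *Cux1* were among the shared hosts, whereas *Creb5*, *Nav2*, *Limch1*, *Slc1a3*, *Maml2* and *Dock1* held members alone. Neighbouring members were far apart, with a median gap of 492654 bp along a chromosome, and 120 of 1823 gaps (6.58%) were 10 kb or less.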

How the data were processed

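ChIP-seq of H3K27ac and H3K27me3 was performed on CINs and non-CINs in 2 replicates each, and the 8 peak lists were used here. Inputs were used by the authors as the background of the peak calls and not here. They aligned single-end reads to mm10 with BWA (0.7.15 in the submitters' processing notes) and called broad peaks for each replicate against its input with MACS2. The version in those notes is 2.2.7, whereas the study's methods name another. Each deposited list gives a score made from the *q* value, a fold enrichment (the ratio of ChIP to input) as well as −log10 values of *p* and of *q*. None is a read count, so depth is unknown and no interval from reads can be given. Fold enrichments were compared between lists only as percentiles within a list. The −log10 *q* cut was applied to raw values, in lists that differ in scale.

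Peaks 500 bp or less apart were merged, and an overlap of 1 bp counted. Replicates are separate samples by their labels, made from pooled litters. The CIN and non-CIN lists were compared within a replicate number. Genes, introns and TSSs are from GENCODE M21. Intron numbers come from the longest transcript over the region's centre in the longest host. H3K27me3 percents over samples were compared by an exact two-sided permutation test (smallest p 0.333). The same test planned for H3K27ac at host promoters is not reported, since these lists chose the hosts. Python 3.11.15, SciPy 1.17.1, pysam 0.24.0 and matplotlib 3.10.9 were used, the merging and overlaps were checked against bedtools 2.31.1, and the rule was tested on simulated data. The 14 motifs were searched on both strands of the central 200 bp.

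The members, gene lists, motifs and tests were chosen with earlier results of these data known, so nothing here is an independent test of them. Genes were named as the hosts of the 12 strongest members, the 10 hosts with most members, the listed genes that hold a member, and the regions at each threshold. The alternatives tried were other merging gaps, overlaps, thresholds, promoter windows and annotations, single replicates, and no block by replicate number.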

Additional observations from a re-analysis of the deposited data

How the results depend on the processing

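The number of members (1843) and of hosts (1376) stayed within 1.5 times under 9 of 13 alternatives each (1304 to 2369 members, 1050 to 1593 hosts). The exceptions were a reciprocal overlap of 50% (1020 members, 862 hosts), a −log10 *q* of at least 4 asked of the non-CIN lists alone (268 and 253), and single replicates, which ask less of a region (6409 to 8952 members, 3284 to 4008 hosts). The first-intron share (29.1%) stayed within its interval under 12 of 14 alternatives (27.8% to 31.0%), and was 31.4% with peaks merged only where they touched and 24.3% with −log10 *q* of at least 4 in the non-CIN lists. The H3K27me3 difference was negative under all 13 alternatives (−0.844 to −0.187 points, p 0.333 to 1). The promoter H3K27ac difference was positive under 12 of 14 (0.227 to 4.52 points). It was −0.198 points with −log10 *q* of at least 4 in the non-CIN lists, which removes non-CIN promoter peaks but no CIN peaks, and −0.145 points with the members' own peaks left out. These lists chose the hosts, and the 12 positive settings kept the members' own peaks, so the sign is only a description. RefSeq gene spans, the shortest host gene (29.1%) and the members' own peaks were alternatives chosen after seeing the data.

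Replicate numbers were not shown to pair the samples: deviations of same-numbered lists correlated at 0.0399 (presence) and 0.114 (percentile) over 70293 regions. With no replicate block there were 2180 members in 1548 hosts, 30.3% in first introns, and differences of −0.573 points for H3K27me3 and 1.32 for promoter H3K27ac. No list gives read depth, so a CIN signal below the authors' threshold cannot be told from none, and with 2 replicates the exact permutation test used could not pass 0.05.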
